A study of Mus musculus with 4 samples.

Results

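Brain cortex of BK knockout mice was compared with that of wildtype littermates left undisturbed, through 1 RNA library of each genotype (KO BL and WT BL). These are 2 of the 4 libraries of the study. The other libraries, WT SD and KO SD, come from littermates of the same genotypes kept awake by gentle handling for 4 h from light onset. The background of every group, controls included, is F1 C57Bl6/J x Sv129, all tissue was taken at ZT4, and each library was made from total RNA pooled over 4 animals. Age, sex, the deleted exons and the cells that lack the channel are not in the labels. With 1 pool on each side there is no replicate, so the text gives levels, fold differences and counting intervals and no test between genotypes. A counting interval covers only the sampling of reads, with no allowance for variation among animals or preparations.

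The BK channel is a potassium channel of large conductance that opens on depolarisation and on a rise of calcium inside the cell. Its pore is made by Kcnma1, and its gating is tuned by beta subunits such as Kcnmb2 and Kcnmb4 and by leucine-rich repeat proteins. In cortical neurons the channel shapes the falling phase of the action potential and the release of transmitter.

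Values are the deposited normalised counts: estimated reads of a gene divided by 1 factor per library. The 4 libraries sum to between 34.5 M and 38.7 M normalised counts, which corresponds to about 30.0 M reads in WT BL and 27.7 M in KO BL. A gene was compared if its 4 values averaged 50 or more, which 13550 of 39179 genes did (12866 of them protein-coding). A difference is log2 of the value plus 1 in KO BL minus the same in WT BL, so that a positive value means higher in the knockout pool. The words higher and lower in counts of genes mean at least 1.5-fold (0.58 on the log2 scale).

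The largest regularity in this pair was the base composition of the genes. Genes rich in G and C stood higher in KO BL and genes rich in A and T stood lower. In the decile of genes lowest in GC, with a median of 41.0% GC, the median difference was -0.56, and 611 genes were lower against 6 higher. In the decile highest in GC, with a median of 59.8%, the median was 0.77, and 932 genes were higher against 5 lower. The median was higher at every step between the lowest and highest decile, crossing 0 between 49.9% and 51.7% GC. Across the 13550 genes the rank correlation of the difference with GC content was 0.80, and with transcript length it was -0.22. This is a description across genes that share 2 libraries. In the pair of sleep-deprived pools the slope had the opposite sign: the median of the same deciles ran from 0.39 at low GC to -0.49 at high GC.

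**Figure D1:**
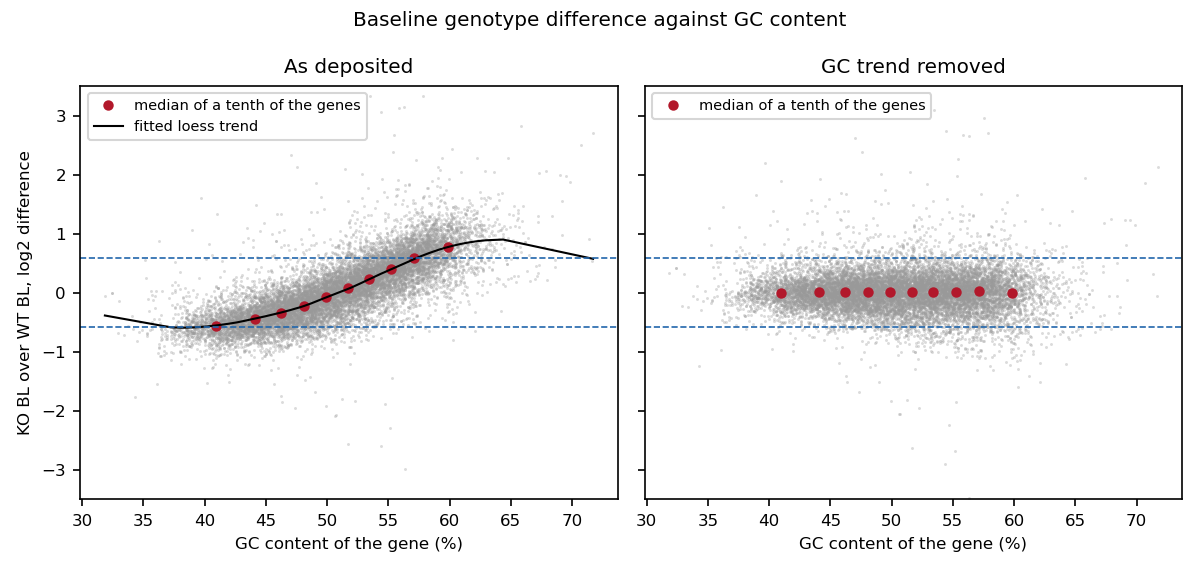
The log2 difference of KO BL over WT BL (y axis) against the GC content of each gene in percent (x axis), as deposited on the left and with the fitted trend removed on the right. Each grey point is a gene, red points are decile medians and run from -0.56 to 0.77 on the left and lie near 0 on the right, and dashed lines mark 1.5-fold. On the left 17 genes and on the right 16 lie beyond the y axis.

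As deposited, 2227 genes were higher in KO BL (16.4% of those compared) and 1444 were lower (10.7%), together 27.1%. When a smooth curve of the difference on GC content was subtracted, 450 were higher (3.32%) and 478 lower (3.53%), together 6.85%. These shares of all genes compared are the background for the counts of each list below. Higher genes were 60.7% of those past 1.5-fold as deposited and 48.5% without the trend. The typical distance of a gene from the median fell from 0.386 to 0.177 on the log2 scale (median absolute deviation). Only 337 of the 2227 and 201 of the 1444 were past 1.5-fold in both versions, and 113 more genes were higher and 277 more lower once the trend was subtracted. No gene was past 1.5-fold in one direction as deposited and in the other without the trend. Most deposited differences below stand beside the difference without the trend, and differences for the sleep-deprived pair are without the trend. The trend can be measured with these data, but the GC content of genes, the genotype and the preparation of the libraries cannot be told apart as its origin.

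Calls without the trend were more frequent among genes with few reads. They made up 14.5% of the quintile of genes with the lowest values (median level 108 normalised counts), and 3.69% to 7.23% of the other quintiles. Among 215 pseudogenes 63 were past 1.5-fold without the trend, and among 176 long intergenic noncoding RNAs 28 were. An exon that overlaps another annotated gene on either strand was found for 4960 of the 13550, and their reads may be divided or may come from the partner. Genes with such an exon that are named without a mark include Cers1, Cnp, Col5a1, Gabra4, Hcn3, Hist2h2aa1, Hoxd10, Hoxd11, Igf2, Junb, Kcnma1, Mobp, Pcsk1n, Rora, Rpl15, Slc1a2, Slc32a1, Trf, Vars2 and Wnt5a.

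The targeted gene was not silent in the knockout pools. Kcnma1 (ENSMUSG00000063142, mm10 chromosome 14, 23289431 to 23803304) stood at 614 normalised counts in WT BL and 447 in KO BL, and at 177 in WT SD and 491 in KO SD. Its baseline difference was -0.46 (95% counting interval -0.65 to -0.26), and -0.15 without the GC trend. The KO libraries lie inside the range of the WT libraries, and the lowest of the 4 is a WT library. A gene-level count cannot show which exons were read, so these values do not check the labels, and the genotypes are named as labelled.

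Among the partners of the channel, Kcnmb4, the beta subunit most associated with neurons, was higher in KO BL. It stood at 1130 in WT BL, 1916 in KO BL, 3018 in WT SD and 1744 in KO SD. Its difference was 0.76 (0.65 to 0.88), and 0.69 without the trend, and it shares exons with another annotated gene, so that its reads may be divided. In the sleep-deprived pair it stood lower in the knockout, at -0.76 without the trend. Kcnmb2, a beta subunit that inactivates the channel, stood at 122.8 in WT BL and 76.4 in KO BL, a difference of -0.68 as deposited and -0.11 without the trend. Lingo1, a leucine-rich repeat membrane protein, went from 7400 to 12900, a difference of 0.80 that was 0.06 without the trend. Of 6 partner genes compared, Kcnma1 included, 1 was higher and 1 lower without the trend, the latter being Lrrc38 (an auxiliary subunit, 52.8 in WT BL and 56.3 in KO BL, -0.59 without the trend and -0.55, under the threshold, with GC and length removed).

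Most other potassium channels were under 1.5-fold without the trend. Of all genes compared, 16.4% were higher and 10.7% lower as deposited, and 3.32% and 3.53% without the trend. Of 48 compared, 11 were higher and 9 lower as deposited, but 0 higher and 4 lower without the trend, with a median of -0.18 against 0.01 for all genes compared. The 4 were Kcna2, a Kv1 subunit of axons, Kcnh5, a channel of the ether-à-go-go family, and Kcns1 and Kcns2, silent subunits that modify Kv2 channels. Kcna2 stood at 530 in WT BL, 303 in KO BL, 16.1 in WT SD and 175 in KO SD, with a baseline difference of -0.80 (-1.04 to -0.58) and of -0.77 without the trend. Kcns2 went from 1186 to 646 (-0.88, and -0.70 without the trend), and Kcnh5 from 399 to 225 (-0.82 and -0.71). Kcns1 went the other way as deposited, from 1087 to 1197, and was at -0.68 only without the trend. None of these 4 genes had both KO libraries on one side of both WT libraries.

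Of 41 genes for calcium channels, stores and pumps, 9 were higher and 5 lower as deposited, and 1 was higher and 1 lower without the trend. The higher one was Ryr3, a calcium release channel of the endoplasmic reticulum, at 138 in WT BL, 241 in KO BL, 141 in WT SD and 323 in KO SD. Both KO libraries lie above both WT libraries, an order shared by 8.23% of all genes compared, and the difference was 0.80 (0.47 to 1.14) as deposited and 0.99 without the trend. Ryr3 shares exons with another annotated gene. Among 11 sodium and HCN channels 2 were higher and 2 lower as deposited, and Hcn3 alone was past 1.5-fold without the trend. Hcn3, a pacemaker channel, stood at 121.7 in WT BL, 307 in KO BL, 121.6 in WT SD and 167 in KO SD.

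Receptors for GABA, the main inhibitory transmitter of cortex, were lower in KO BL as deposited. Of 15 genes compared, 8 were lower and 0 higher, and the list's median was -0.68, where the median over all genes compared was -0.01. These genes are poor in GC, with a median of 45.8% against 50.8% for all genes. Without the trend 2 were lower and 0 higher, and the median was -0.29, and with GC and length removed 1 was lower. Gabrb2, a beta subunit of the receptor channel, stood at 1282 in WT BL, 625 in KO BL, 94.4 in WT SD and 996 in KO SD, with a difference of -1.04 (-1.19 to -0.88) and of -0.63 without the trend. KO BL was below WT BL, while KO SD was above WT SD. Gabra4, an alpha subunit, went from 5208 to 2972, at -0.81 as deposited and -0.29 without the trend.

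Glutamate receptors and their scaffolds gave 10 higher and 3 lower of 35 as deposited, and 1 higher and 1 lower without the trend. The first was Grik3, a kainate receptor subunit, at 871 in WT BL, 1702 in KO BL, 572 in WT SD and 1332 in KO SD, so that both KO libraries lie above both WT libraries. Its difference was 0.97 (0.84 to 1.10), and 0.66 without the trend. The second was Grin2a, an NMDA receptor subunit, from 282 to 207 (-0.45, and -0.62 without the trend). It was at -0.58, under the threshold, when GC and length were removed together, and 11.6% of its windows lie in other genes.

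Genes of myelin, the membrane that oligodendrocytes wrap around axons, were higher in KO BL with and without the GC trend. Of 18 compared, 10 were higher and 0 lower as deposited, with a median of 0.66, and 9 higher and 0 lower without the trend, with a median of 0.58. Among all genes compared 3.32% were higher without the trend. The overlapping list of 12 oligodendrocyte markers gave 6 higher and 0 lower, and 7 higher and 0 lower without the trend, with a median of 0.65. In 17 of the 18, under 10% of the 50-base windows of the transcripts also lie in another gene, the exception being Trf, the iron carrier transferrin.

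Mbp, myelin basic protein, stood at 11790 normalised counts in WT BL, 28500 in KO BL, 24870 in WT SD and 21340 in KO SD. The difference was 1.27 (1.24 to 1.31), and 0.91 without the trend. Mobp, another small basic protein of myelin, stood at 3061, 5574, 5393 and 6688 in the same order, at 0.86 (0.80 to 0.93) and 0.80. For Mbp only WT BL is apart from the other 3 libraries, and for Mobp both KO libraries lie above both WT libraries, by a small margin over WT SD.

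Cldn11, which forms the tight junctions of myelin, stood at 1390 in WT BL, 2232 in KO BL, 2418 in WT SD and 1574 in KO SD. Mog, a protein of the outer myelin surface, stood at 750, 1169, 1051 and 974 in the same order. Both were past 1.5-fold in both versions, at 0.73 and 0.65 without the trend, and both had WT BL as the lowest library.

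Mag, an adhesion protein on the inner myelin surface, stood at 1030 in WT BL, 2366 in KO BL, 1325 in WT SD and 1318 in KO SD, and Cnp, an enzyme of the myelin cytoplasm, at 3665, 6774, 6002 and 4192. Cnp was past 1.5-fold as deposited (0.89) and at 0.55 without the trend, while Mag was at 1.199 as deposited and just under the threshold, at 0.58, without the trend, and past it, at 0.61, with GC and length removed. Ugt8a, the enzyme that makes galactosylceramide, stood at 567 in WT BL and 431 in KO BL. As deposited it went against most of the list (-0.40). Without the trend all 18 genes of the myelin list, Ugt8a included, were above 0, the lowest at 0.19.

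Summed over the 12 oligodendrocyte markers, the level was 40484 in WT BL, 68435 in KO BL, 75533 in WT SD and 69655 in KO SD. WT BL is the lowest, and KO BL lies close to both sleep-deprived libraries. In the sleep-deprived pair 2 of the 12 were higher and 1 lower in the knockout without the trend, where 18.3% and 18.4% of all genes were. In bulk tissue more cells of a type and more RNA per cell cannot be told apart. The amount of white matter taken with the cortex was not tested. Markers of oligodendrocyte precursors were at 0 higher and 0 lower of 8 without the trend, with a median of 0.01.

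**Figure D2:**
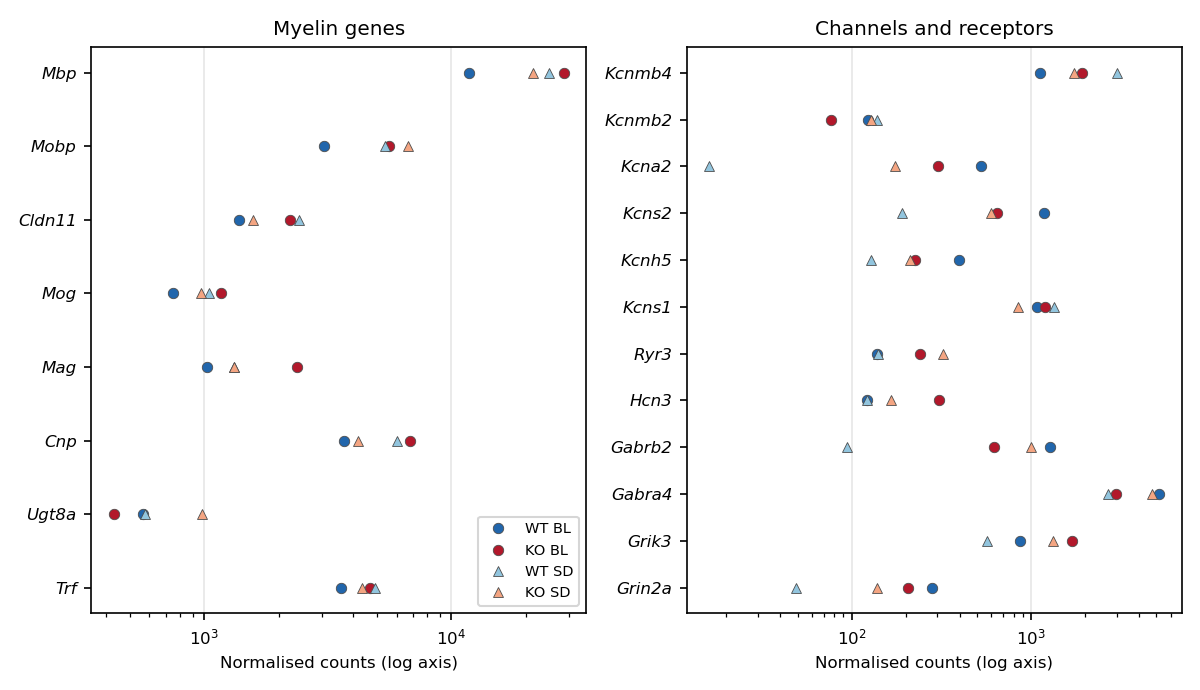
Normalised counts (x axis, log scale) of 8 myelin genes and 12 genes of channels and receptors described in the text, in the 4 libraries. Each symbol is 1 library, circles for baseline and triangles for sleep deprivation. For Mbp, Cldn11 and Mog the blue circle of WT BL is the leftmost symbol, and for Kcnmb2 the red circle of KO BL is.

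Transcripts of cytosolic ribosomal proteins were more often higher than lower in KO BL. Of 77 compared, 33 were higher and 3 lower as deposited, with a median of 0.52, and 22 higher and 4 lower without the trend, with a median of 0.39. Over all genes compared 16.4% were higher and 10.7% lower as deposited, and 3.32% and 3.53% without the trend. Rps29, a protein of the small subunit, stood at 1438 in WT BL, 3596 in KO BL, 10600 in WT SD and 2645 in KO SD, with a difference of 1.32 (1.23 to 1.42) and of 1.23 without the trend. Rplp1, an acidic protein of the stalk of the large subunit, stood at 3512, 8820, 31060 and 7288, at 1.33 (1.27 to 1.39) and 0.74. In both genes WT SD is far above the rest, and in the sleep-deprived pair 72 of the 77 were lower in the knockout without the trend. That pair keeps a rank correlation of 0.48 with transcript length after its GC trend is removed, and removing GC and length together left 17 of the 77 higher and 4 lower at baseline, with a median of 0.25. Summed over the family, the level was 355529 in WT BL and 453999 in KO BL. With 235 pseudogenes named after ribosomal protein genes added, it was 409320 and 518808.

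These genes have many processed copies in the genome, and reads from them cannot always be placed. A median of 21.03% of the 50-base windows of a ribosomal protein gene also lies in a transcript of another gene, and only 14 of the 77 have under 10% of such windows. Of these 14, 5 were higher and 0 lower as deposited, and 1 higher and 0 lower without the trend, with medians of 0.35 and 0.32. The clearest case is Rps16, a protein of the small subunit, the most lowered of the protein-coding genes read in both baseline libraries and free of shared exons. Its coding sequence of 441 bases is identical, base for base, to the whole of the pseudogene Rps16-ps2 (100% of 441 bases). The first 150 bases of each are shown because no read inside them can tell the gene (mm10 chromosome 7, 28350652 to 28352696, plus strand) from the copy (mm10 chromosome 5, 129128077 to 129128517, minus strand). They come from GENCODE M21 transcripts and run 5′ to 3′ on the coding strand, with the start codon in capitals.
Rps16: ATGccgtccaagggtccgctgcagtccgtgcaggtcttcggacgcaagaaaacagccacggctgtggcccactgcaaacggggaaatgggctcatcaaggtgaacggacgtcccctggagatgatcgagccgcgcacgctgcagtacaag
Rps16-ps2: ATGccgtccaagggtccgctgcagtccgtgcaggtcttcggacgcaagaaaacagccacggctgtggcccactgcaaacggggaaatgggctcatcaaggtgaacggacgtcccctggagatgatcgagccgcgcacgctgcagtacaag

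Rps16 stood at 909 normalised counts in WT BL, 149.7 in KO BL, 6327 in WT SD and 542 in KO SD, a baseline difference of -2.59 (-2.89 to -2.32), and of -2.91 without the trend. The named pseudogenes of Rps16 together stood at 2723 in WT BL and 5160 in KO BL. Gene and copies added together went from 3632 to 5310, a difference of 0.55 in the opposite direction. A lower level of Rps16 and a different placing of the same reads cannot be told apart.

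Rpl15, of the large subunit, lies on chromosome 14 within 10 Mb of Kcnma1 and behaved alike. It went from 3085 in WT BL to 1830 in KO BL (-0.75, and -0.90 without the trend), while its sum with 4 named pseudogenes went from 6054 to 6951 (0.20). Its coding sequence of 615 bases is also identical to that of the copy Rpl15-ps3 over all 615 bases. Mrpl23, a mitochondrial ribosomal protein, stood at 9.30 in WT BL, 85.1 in KO BL, 638 in WT SD and 60.4 in KO SD (3.06, and 2.74 without the trend). With its pseudogene the sum went from 656 to 892 (0.44). For these 3 genes the sums differed by less than 1.5-fold.

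Genes of energy metabolism differed from list to list. Among all genes compared 16.4% were higher and 10.7% lower as deposited, and 3.32% and 3.53% without the trend. Of 74 nuclear genes of the respiratory chain, 18 were higher and 0 lower as deposited, and 8 higher and 0 lower without the trend, with a median of 0.15, and 5 higher and 0 lower with GC and length removed. Ndufb7, a subunit of complex I, stood at 601 in WT BL, 1555 in KO BL, 5422 in WT SD and 1048 in KO SD (1.37, and 0.84 without the trend). As with the ribosomal genes, WT BL was the lowest and WT SD the highest library. The 13 mRNAs encoded in the mitochondrial genome were level as deposited, with 0 higher, 0 lower and a median of -0.06. They are among the genes lowest in GC (median 37.1%), where the fitted trend is at its lowest, and without it 3 were higher and the median was 0.50. mt-Cytb, the mitochondrial subunit of complex III, stood at 359200 in WT BL and 371000 in KO BL, 0.05 as deposited and 0.64 without the trend. When GC and length were removed together, 0 of the 13 were higher, the median was 0.30 and mt-Cytb was at 0.54. The direction of this list depends on whether the trend is taken off. Mitochondrial ribosomal proteins gave 11 higher and 0 lower of 73 as deposited, and 1 higher (Mrpl23) and 0 lower without the trend, and glycolysis, glycogen and lactate genes 10 higher and 1 lower of 30, then 1 higher and 0 lower.

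Long noncoding RNAs kept in the nucleus were more often higher than lower. The shares of all genes compared were 16.4% higher and 10.7% lower as deposited, and 3.32% and 3.53% without the trend. Of 9 compared, 4 were higher and 1 lower as deposited, with a median of 0.54, and 5 were higher and 0 lower without the trend, with a median of 0.60. Meg3, a maternally expressed RNA, stood at 14580 in WT BL, 32980 in KO BL, 19090 in WT SD and 42470 in KO SD, with a difference of 1.18 (1.15 to 1.21) and of 0.72 without the trend. Miat stood at 2680, 6611, 3012 and 7337 (1.30, and 0.69), and Snhg11 at 12570, 21250, 19820 and 37160 (0.76, and 0.60). In all 3 both KO libraries lie above both WT libraries, an order shared by 8.23% of all genes compared. Mirg was also higher (1.03, and 0.91), but its genotypes overlap. Tug1 went the other way, from 4190 in WT BL to 2369 in KO BL (-0.82, and -0.28). Malat1, a very abundant RNA of nuclear speckles, stood at 6555 in WT BL and 7116 in KO BL, 0.12 as deposited and 0.68 without the trend. The share of nuclear RNA in each pool was not tested, and all 9 genes share exons with other annotated genes.

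Collagen genes were higher as deposited, with 11 higher and 2 lower of 21 and a median of 0.59. They are rich in GC (median 56.1%). Without the trend 3 were higher and 1 lower, and the list's median was 0.26. Among all genes compared 16.4% were higher as deposited and 3.32% without the trend. Col5a1, of fibrillar collagen V, stood at 109 in WT BL, 388 in KO BL, 161 in WT SD and 359 in KO SD (1.82, and 1.30 without the trend), and Col6a1, of the microfibrils of collagen VI, at 460, 1184, 440 and 963 (1.36, and 0.74). Col11a1, another fibrillar chain, stood at 93.0, 159, 82.6 and 186 (0.77, and 1.10). In these 3 both KO libraries lie above both WT libraries, an order shared by 8.23% of all genes compared. Col11a2 and Col16a1, at 1.41 and 1.29 as deposited, were at 0.52 and 0.48 without the trend, and in both the genotypes overlap. Col25a1, a membrane collagen of neurons, went from 1070 to 523 (-1.03 and -1.13) and had WT BL as the highest library. Markers of mural cells and meninges gave 0 higher and 2 lower of 14 without the trend, namely Lum, a proteoglycan of meningeal matrix, from 250.2 to 86.4 (-1.52 and -0.995), and the growth factor Igf2, from 5146 to 4014 (-0.36 and -0.77).

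Neuropeptide genes gave 6 higher and 0 lower of 23 as deposited, and 3 higher and 0 lower without the trend, with a median of 0.23. Tac1, the precursor of substance P, stood at 146 in WT BL, 298 in KO BL, 669 in WT SD and 314 in KO SD (1.03, and 1.37 without the trend). Cort, the precursor of cortistatin, a peptide of cortical interneurons linked to slow-wave sleep, stood at 23.0, 66.3, 231 and 66.7 (1.49 with an interval of 0.76 to 2.35, and 0.81). Pcsk1n, an inhibitor of prohormone processing, stood at 526, 2507, 8710 and 1281 (2.25, and 1.67). In each of these WT BL is the lowest and WT SD the highest, so the genotypes differ in opposite directions in the baseline and the sleep-deprived pair.

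Genes switched on by neuronal activity illustrate how far the trend reaches. Of 38 early genes, 15 were higher and 1 lower as deposited, with a median of 0.34, and 2 higher and 2 lower without the trend, with a median of -0.03. They are rich in GC (median 56.1%). Junb, a subunit of the AP-1 factor, stood at 286 in WT BL, 936 in KO BL, 1217 in WT SD and 349 in KO SD, with a difference of 1.71 (1.503 to 1.92), and of 0.83 without the trend. Nr4a2, an orphan nuclear receptor, stood at 239, 367, 968 and 1635 (0.62, and 0.71). Klf4 and Ier2 were the lower pair without the trend, at -0.99 and -0.61, and neither was past 1.5-fold as deposited. Clock genes gave 3 higher and 4 lower of 23, and 0 higher and 1 lower without the trend, namely Rora, a nuclear receptor that drives Bmal1, from 3143 to 1631 (-0.95 and -0.85).

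Among genes that answer to glucocorticoids, 7 were higher and 1 lower of 22 as deposited, and 2 higher and 1 lower without the trend. Plin4, a protein of lipid droplets, stood at 11.5 in WT BL, 107.7 in KO BL, 63.3 in WT SD and 37.7 in KO SD (3.12 with an interval of 2.28 to 4.34, and 2.67 without the trend), and shares exons with another gene. Fkbp5, a chaperone of the glucocorticoid receptor, stood at 678, 1027, 1264 and 813 (0.60, and 0.67). Pdk4, a kinase that restrains pyruvate use, stood at 531, 323, 229 and 682 (-0.72, and -0.91). In Plin4 and Fkbp5 WT BL was the lowest of the 4 libraries.

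Other lists gave at most 1 higher and 2 lower without the trend, apart from the neuron and striatum markers given next. Heat shock chaperones gave 0 higher and 1 lower of 26, and 0 genes were past 1.5-fold among 23 chaperones of the endoplasmic reticulum, 25 genes of cholesterol synthesis and transport, 31 proteasome subunits and 37 tRNA synthetases. Vesicle release gave 1 higher and 0 lower of 31, and interferon response and class I antigen presentation gave 0 higher and 2 lower of 21, namely Gbp3, an interferon-induced GTPase, and Bst2, an antiviral membrane protein. Of 8 replication-dependent histone genes 1 was higher and 0 lower, and both cold-inducible RNA-binding genes were under 1.5-fold. The medians of the lists in this paragraph lay between -0.02 and 0.19. Of the 44 lists, 15 had a median whose sign differed between the deposited values and those without the trend.

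**Figure D3:**
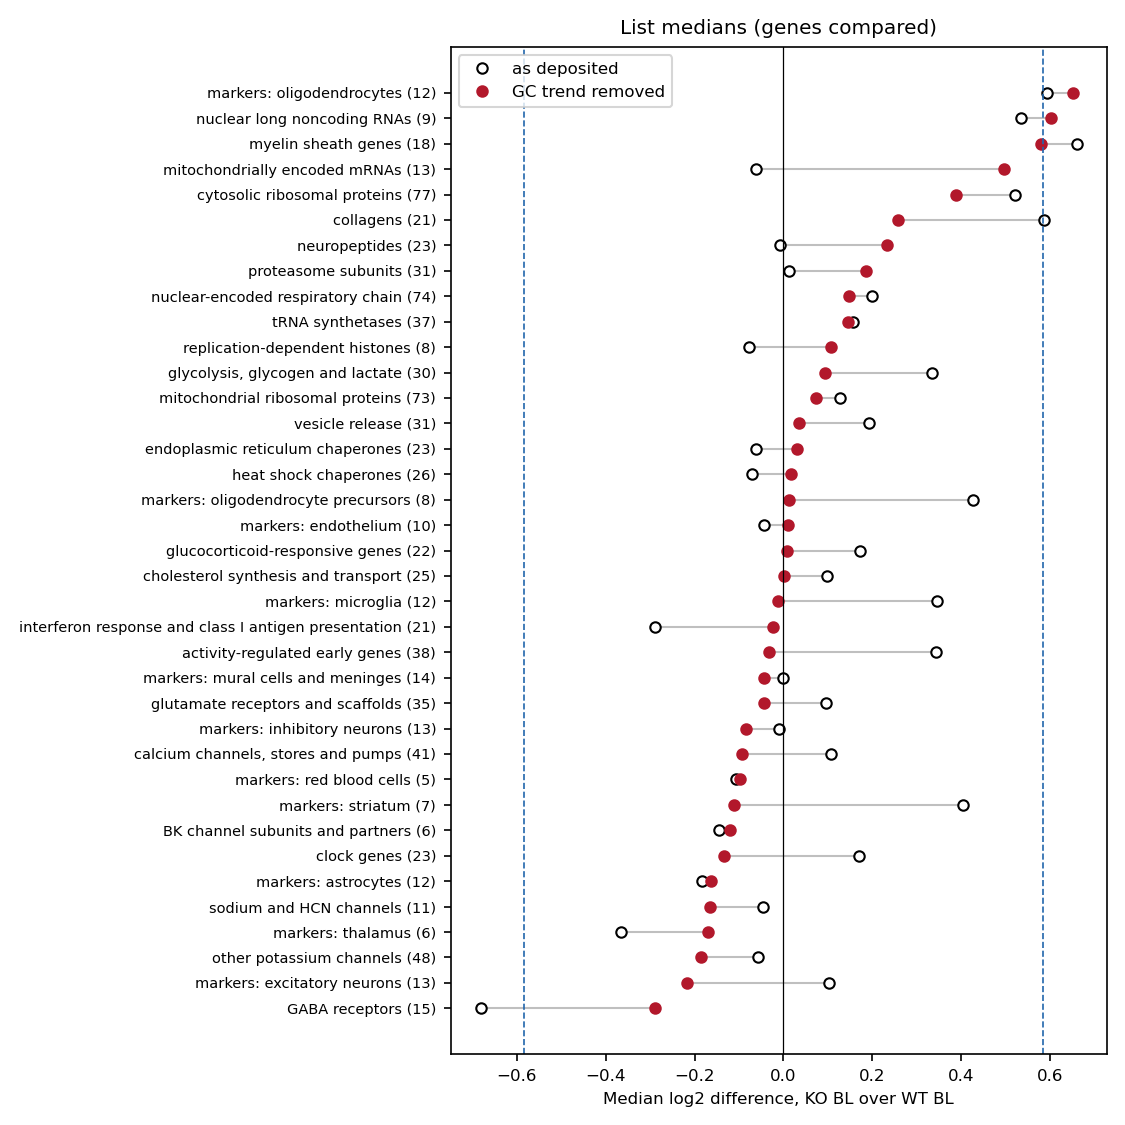
Median log2 difference of KO BL over WT BL (x axis) for each list with at least 5 genes compared (number in brackets), as deposited (open) and without the GC trend (filled). Dashed lines mark 1.5-fold. Oligodendrocyte markers and nuclear long noncoding RNAs lie at 0.65 and 0.60 without the trend, and GABA receptors move from -0.68 to -0.29.

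Markers of cortical cell types were read in both baseline pools. Tbr1, a factor of cortical projection neurons, stood at 5577 in WT BL and 4438 in KO BL. No marker of excitatory neurons, inhibitory neurons, astrocytes or microglia found in the table was listed at 0 in any library. Summed levels in WT BL and KO BL were 248301 and 291032 for excitatory neurons, 68814 and 61045 for inhibitory neurons, 256553 and 208236 for astrocytes, and 20461 and 21085 for microglia. These sums are of deposited values, so they keep the GC trend, and abundant genes weigh most in them. In the astrocyte sums Slc1a2 alone stood at 114700 and 77530. List medians without the trend were -0.22 for excitatory neurons, -0.09 for inhibitory neurons, -0.16 for astrocytes and -0.01 for microglia. Without the trend 2 of 13 excitatory neuron markers were higher and 2 lower. The higher ones were Fezf2, a factor of deep-layer projection neurons, at 251 in WT BL, 784 in KO BL, 430 in WT SD and 545 in KO SD (1.64, and 1.21), and Foxp2, a factor of layer 6 neurons, at 147, 218, 468 and 351 (0.56, and 0.86). Tbr1 was among the lower ones (-0.68 without the trend). Of 13 inhibitory neuron markers 0 were higher and 2 lower, Dlx2, a factor of interneuron progenitors (129.7 to 137.9, 0.09 as deposited and -0.65 without the trend), and Lamp5, a marker of neurogliaform cells (20400 to 14050, -0.54 and -0.62). The astrocyte list gave 0 higher and 1 lower of 12, the glutamate transporter Slc1a2 (114700 to 77530, -0.57 and -0.61), and microglia and endothelium gave 0 higher and 0 lower of 12 and 10.

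Markers of neighbouring regions differed one by one. Cdhr1, a cadherin of olfactory bulb projection neurons and of photoreceptors, stood at 708 in WT BL, 166.5 in KO BL, 57.8 in WT SD and 102.8 in KO SD, with a difference of -2.08 (-2.37 to -1.82) and of -2.06 without the trend. WT BL stands apart from the other 3 libraries. The 7 olfactory and hypothalamic markers, Cdhr1 included, summed to 811 in WT BL, 253 in KO BL, 194 in WT SD and 175 in KO SD, and 2 of them were at 0 in WT BL and 1 in KO BL. Cdhr1 alone made up 708 of the 811 and 166.5 of the 253, so the baseline sums mostly repeat this gene. Hippocampal and thalamic markers gave 0 higher and 1 lower each, of 4 and 6, namely Fibcd1, a chitin-binding receptor (319.0 to 319.3, -0.74 without the trend and -0.58, under the threshold, with GC and length removed), and Rora. Of 7 striatal markers 2 were higher, Rgs9 (91.9 to 241) and Tac1, and 1 was lower without the trend. The part that tissue dissection has in these values was not tested.

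The extremes of the comparison were named by a fixed rule among protein-coding genes that share no exon with another gene and are read in both baseline libraries. Hoxd8, a homeobox factor of body axis patterning, was the most raised. It stood at 1.15 normalised counts, or 1 read, in WT BL, and at 58.9 in KO BL, 137.9 in WT SD and 78.1 in KO SD. The difference was 4.80 (3.13 to 11.0), and 4.39 without the trend. WT BL alone is near 0, and KO BL lies below both sleep-deprived libraries.

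Neighbouring HoxD genes on chromosome 2 were looked up after these values were seen, and 4 of them were listed at 0 in WT BL and read in the other 3 libraries. Hoxd9 was listed at 0 in WT BL, 119.1 in KO BL, 229.7 in WT SD and 87.2 in KO SD, and against a floor of 3 reads in WT BL it was at least 34.6-fold higher in KO BL. Hoxd10 was listed at 0, 13.8, 97.4 and 34.2, Hoxd11 at 0, 6.26, 22.5 and 12.3, and Hoxd13 at 0, 2.504, 19.97 and 10.5 in the same order. The KO BL value of Hoxd13 lies under the floor of 3 reads, which is 3.76 in that library. The 8 HoxD genes listed with values summed to 3.44 in WT BL, 201.7 in KO BL, 507 in WT SD and 225 in KO SD. The HoxA, HoxB and HoxC clusters summed to at most 11.8 each in any library. The HoxD transcripts span 74668310 to 74707933 on mm10 chromosome 2 from Hoxd13 to Hoxd8.

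Ier5l, an early response gene, stood at 15.0 in WT BL, 102.6 in KO BL, 113.7 in WT SD and 36.0 in KO SD (2.70, and 2.13 without the trend). Cbln1, a secreted organiser of synapses, stood at 21.8, 117.7, 83.2 and 94.9 (2.38, and 1.98), and C1qtnf4, a secreted protein with C1q domains, at 163, 931, 1736 and 355 (2.504, and 1.85). WT BL is the lowest library for all 3. Ier5l, at 71.7% GC, and C1qtnf4, at 70.7%, lie at the upper end of GC, where few genes set the trend. In the sleep-deprived pair its subtraction moved Ier5l from -1.63 to 0.14 and C1qtnf4 from -2.29 to -0.67. Stbd1, which anchors glycogen to membranes, stood at 84.9, 366, 146 and 162 (2.09 with an interval of 1.73 to 2.49, and 2.05), with KO BL apart from the rest. Trhr, the receptor of thyrotropin-releasing hormone, stood at 18.4, 47.6, 70.0 and 100.9 (1.33 with 0.50 to 2.31, and 1.88).

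Ttr, the carrier of thyroxine made by choroid plexus, stood at 25.3 in WT BL, 65.0 in KO BL, 23.8 in WT SD and 581 in KO SD (1.33 with 0.62 to 2.16, and 1.67 without the trend). It was the only 1 of 4 choroid plexus and ependyma markers compared that was past 1.5-fold without the trend, and the 8 markers of the list found summed to 343 in WT BL and 377 in KO BL. Rps7, of the small ribosomal subunit, stood at 555, 2017, 3432 and 1715 (1.86 and 2.01), with 27.7% of its windows in other genes. Erdr1, a gene of the pseudoautosomal region, stood at 38.1, 275, 502 and 245 (2.82 and 1.94), with 40.5% of its windows in other genes.

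Among the most lowered, Rps16 and Cdhr1 are described above. Xaf1, an interferon-induced partner of apoptosis inhibitors, stood at 450 in WT BL, 170 in KO BL, 536 in WT SD and 187 in KO SD. The difference was -1.40 (-1.69 to -1.12), and -1.13 without the trend, and both KO libraries lie below both WT libraries, an order shared by 7.26% of all genes compared. Col8a2, a chain of collagen VIII, stood at 247, 162, 75.5 and 44.0 (-0.61 and -1.25). Insm1, a zinc finger factor of neuronal progenitors, stood at 259.5, 164.9, 135.4 and 158.1 (-0.65 and -1.52), and Pqlc3, a membrane protein with PQ-loop repeats, at 98.7, 41.9, 45.5 and 27.5 (-1.22 and -1.29). WT BL was the highest of the 4 libraries for Col8a2, Insm1 and Pqlc3.

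Klf5, a factor of epithelial cells, Tal1, a factor of blood and midbrain neurons, and Samd15 were read at under 100 normalised counts in every library. Samd15 stood at 79.1 in WT BL, 26.3 in KO BL, 85.4 in WT SD and 91.7 in KO SD (-1.55 with an interval of -2.37 to -0.87, and -1.19). Klf5 (68.9 to 38.8) and Tal1 (70.0 to 44.2) have intervals that reach to -0.18 and -0.05 as deposited.

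**Figure D4:**
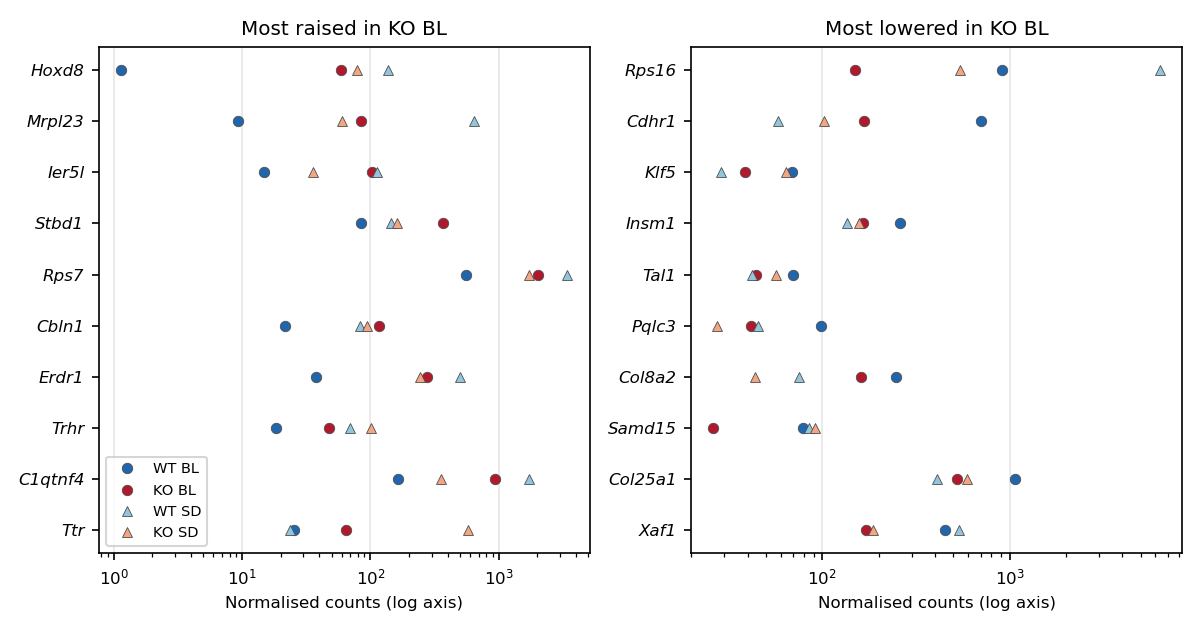
Normalised counts (x axis, log scale) of the 10 most raised and the 10 most lowered genes in the 4 libraries, ordered by the difference without the GC trend. Each symbol is 1 library, circles for baseline and triangles for sleep deprivation. WT BL is the lowest library for Hoxd8 at 1.15 and the highest for Cdhr1 at 708, while Xaf1 separates both KO from both WT libraries.

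How often the 2 baseline pools were themselves the outer values was counted for the 337 genes higher and 201 lower in both versions. In 267 of the 337, WT BL was the lowest of the 4 libraries, in 171 KO BL was the highest, and in 110 both held. Of the 201, WT BL was the highest in 122, KO BL the lowest in 103, and both held in 38. Both sets were chosen by the difference between these same pools, which favours outer positions, so the counts only describe the chosen genes.

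The sleep-deprived pools offer a second pair of the genotypes that shares no library with the first. Without the GC trend of each pair, 106 genes were higher in the knockout in both, which is 23.6% of the 450 higher at baseline and 4.27% of the 2481 higher after sleep deprivation. Lower in both were 76, or 15.9% of the 478 and 3.05% of the 2493. In the sleep-deprived pair 18.3% of all genes were higher and 18.4% lower. Another 145 genes were higher at baseline and lower after sleep deprivation (32.2% of the 450), and 131 were lower at baseline and higher after it (27.4% of the 478). Genes in opposite directions, 276 in all, thus outnumbered the 182 in the same direction (1.34% of genes compared). Without the GC trend the difference still had a rank correlation with transcript length, of -0.11 at baseline and 0.48 after sleep deprivation. The part of length in the opposite directions was not tested.

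Of the 106 genes, 89 had both KO libraries above both WT libraries in the deposited values, and of the 76, 40 had both below. Over all genes compared 8.23% and 7.26% had these orders. The 106 and the 76 were chosen on the same 4 libraries, which favours such an order, so the counts are no separate evidence. Pxdn, a peroxidase that crosslinks collagen IV, stood at 349 in WT BL, 655 in KO BL, 231 in WT SD and 586 in KO SD, at 0.91 as deposited and 0.97 without the trend at baseline, and at 1.29 after sleep deprivation without the trend. The values in brackets that follow are in this order. Adamts10, a protease of the fibrillin matrix, stood at 122, 376, 148 and 256 (1.61, 0.98 and 1.17). Anln, a scaffold of septins found in myelin and dividing cells, stood at 241, 354, 204 and 463 (0.55, 0.99 and 0.91), and Sdk2, an adhesion protein of synaptic layers, at 155, 473, 225 and 325 (1.61, 0.89 and 0.98). In these 4 the genotypes do not overlap.

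Oprk1, the kappa opioid receptor, stood at 28.7, 62.6, 67.0 and 178 (1.10, 1.57 and 1.09), and Tnfrsf25, a death domain receptor, at 13.8, 53.9, 63.2 and 94.0 (1.89, 1.21 and 0.99), and in both the genotypes overlap. Ecel1, a protease of the neprilysin family, stood at 31.7, 112.7, 41.7 and 57.9 (1.80, 1.08 and 0.92), without overlap. Ttr, Col11a1 and Tmem254c complete the 10 with the largest smaller difference.

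Of the genes lower in both, Xaf1 was at -1.40, -1.13 and -1.69, and Rps16 at -2.59, -2.91 and -3.35, in the same order. Sp8, a factor of forebrain interneurons, stood at 109.2 in WT BL, 57.6 in KO BL, 69.6 in WT SD and 42.1 in KO SD (-0.91, -0.80 and -0.79). March11, an ubiquitin ligase, stood at 192.5, 120.2, 407 and 188 (-0.67, -0.83 and -1.003), and Cldn26, a membrane protein of the claudin family, at 64.3, 42.6, 169 and 29.7 (-0.58 with an interval of -1.25 to 0.05, -1.42 and -1.88). Hba-a2, an alpha globin of red cells, stood at 18800, 13220, 13000 and 3999 (-0.51, -1.08 and -1.35), with 89.3% of its windows in other genes. It was the only 1 of 5 red cell markers past 1.5-fold at baseline without the trend, and 0 were past it as deposited. Hfe2, hemojuvelin, went from 194.8 to 126.5 at baseline (-0.62, -1.01 and -1.13), and Cd300a, a receptor of myeloid cells, from 91.3 to 51.3 (-0.82, -0.77 and -0.79). Agmat, an agmatinase, was nearly level as deposited, at 113.6 in WT BL and 105.2 in KO BL (-0.11 with an interval of -0.55 to 0.32), and was at -0.77 only without the trend. Zfp503 was likewise at -0.07 (-0.60 to 0.44) as deposited and -0.79 without the trend.

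**Figure D5:**
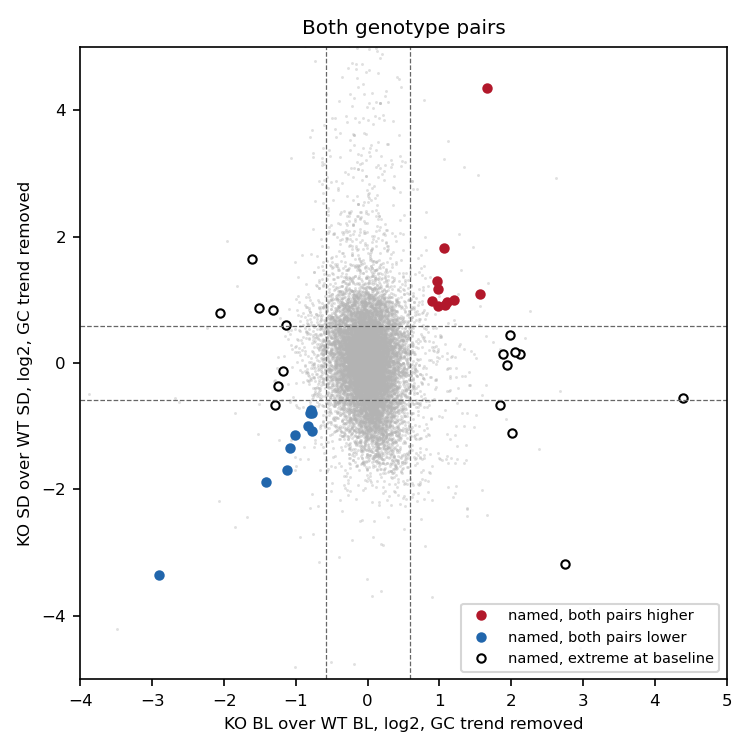
Log2 difference of knockout over wildtype without the GC trend, at baseline (x axis) and after sleep deprivation (y axis), with dashed lines at 1.5-fold. Grey points are genes, filled points the named genes past 1.5-fold in the same direction in both pairs, and open points the other extremes of the baseline pair. Mrpl23 lies at 2.74 and -3.18, and 56 genes lie outside the axes.

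Some genes were listed at 0 in 1 baseline library and above 100 in the other. Gdf1, a growth factor of the TGF-beta family, stood at 176.5 in WT BL and 1026 in WT SD and at 0 in both KO libraries, which is at least 47.0-fold lower at baseline and at least 390-fold lower after sleep deprivation against a floor of 3 reads. Cers1, a ceramide synthase known to share a bicistronic transcript with Gdf1, stood at 786 in WT BL, 2096 in KO BL, 320 in WT SD and 986 in KO SD. The estimate for each of the 2 genes depends on how shared reads were divided, so the zeros of Gdf1 cannot be told apart from a different division.

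The pseudogene Gm10184 on chromosome 17 stood at 0 in both WT libraries and at 175.3 in KO BL and 156.8 in KO SD, at least 50.9-fold and 47.0-fold higher, but 99.0% of its 50-base windows also lie in other genes. It and Gdf1 are the genes of this kind in which the 2 pairs went the same way. The others were Gm6768 (2085 in WT BL and 0 elsewhere), Gm5931, Rab11b-ps2, Gm14440, Gm10108, Hoxd9 and 1 of the entries that carry the symbol Sowahc. For Gm6768, Gm5931, Rab11b-ps2, Gm14440 and Gm10108, 80.8% to 100% of the windows lie in other genes. Of these 9 genes 5 are pseudogenes.

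Genes around Kcnma1 were examined since a targeted allele can carry flanking chromosome from the strain in which it was made. Of 115 other genes compared within 10 Mb, 13 were past 1.5-fold without the trend (11.3%), against 6.85% of all genes compared. The 13 include Tmem254a and Tmem254b, whose values are equal in every library, and their copy Tmem254c, so that 1 signal can be counted more than once. Within 2 Mb it was 1 of 14 and within 20 Mb 19 of 153 (12.4%). On the whole of chromosome 14 it was 9.70%, and 4.93% to 9.02% on the other chromosomes. The median difference within 10 Mb was 0.01 without the trend.

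Of the 13, 5 were past 1.5-fold in the same direction in both pairs, as were 182 of the 928 past it at baseline over all genes compared. Tmem254c stood at 215 in WT BL, 382 in KO BL, 68.0 in WT SD and 273 in KO SD (1.07 at baseline without the trend), but 100% of its windows also lie in other genes, among them Tmem254a and Tmem254b. Ncoa4, which delivers ferritin to lysosomes, stood at 1998, 2742, 2117 and 3698 (0.46, and 0.77 without the trend). Of the windows of Ncoa4, 17.9% lie in other genes, so its reads may be divided. The noncoding Gm16241 stood at 81.6, 106.3, 90.4 and 159.7 (0.38 and 0.76), and was at 0.585, only just past the threshold, in the sleep-deprived pair. Zfp503, a zinc finger repressor, stood at 79.2, 75.2, 115.7 and 49.97 (-0.07, and -0.79), and Rpl15 is given above. Wnt5a, a secreted Wnt ligand, lies in the same window and stood at 277.5 in KO BL (-0.82, and -0.97), with the opposite direction after sleep deprivation (0.76).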

How the data were processed

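Members and gene lists were chosen with earlier results of these data known. The deposited signal is an estimated read number for each gene, scaled by the authors with 1 factor for a library, as judged from the file's values. The deposited GC fraction and transcript width of each gene are the authors' own. RSEM 1.2.19 and edgeR are named in the submitters' processing notes; no aligner or library kit is named. The ratio and FDR columns were not used. Of 39179 genes, 1 value of KO BL stored as a date was taken from another deposited table and 14 gene symbols stored as dates were restored through their identifiers. Coordinates are 1-based on mm10.

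Differences are log2(value + 1), with a mean of at least 50 over the 4 libraries and a threshold of 1.5-fold, without tests. Loess (R 4.3.3, span 0.3, degree 2, symmetric) of the difference on GC gave the trend, which was checked on simulated data. The most common low non-zero value gave the worth of 1 read: 1.15 and 1.25 for WT BL and KO BL, and 1.11 and 0.878 for WT SD and KO SD. Exact binomial 95% intervals and floors of 3 reads cover counting error only. Because 59.4% to 70.6% of values below 100 were whole multiples of that worth (within 0.02 of a read), no count model was used.

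Exon sharing was taken from GENCODE M21 on either strand, and copies were counted as 50-base windows of its transcripts on the sense strand. The rule for naming took Kcnma1, the 10 most raised and lowered genes past 1.5-fold with and without the trend, the 10 per direction shared by both genotype pairs, up to 4 members per list, genes at 0 in 1 baseline library with at least 100 in the other, and genes within 10 Mb of Kcnma1 past 1.5-fold in both pairs. It left out genes with shared exons, repeated symbols or Gm and Rik names from the extremes. List members needed for a count of 5 or fewer, the neighbours of Hoxd8, Cers1 and Wnt5a were named after their values were seen. Of 949 genes in the lists 942 were found. Alternatives were another pseudocount, filter, scaling, GC with length, and, chosen after seeing the data, a filter on the baseline libraries alone and genes without shared exons. Values of some genes are not reported here.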

Additional observations from a re-analysis of the deposited data

Results flagged for a closer look

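Without the GC trend of each pair, 276 genes were past 1.5-fold in opposite directions at baseline and after sleep deprivation, where the difference between the pairs was not tested. The genes named next are extremes of the baseline pair. Mrpl23 was higher in KO BL and stood at -3.18 in KO SD over WT SD, Rps7 at -1.11 and C1qtnf4 at -0.67. Cdhr1 was lower in KO BL and stood at 0.79 in KO SD over WT SD, Klf5 at 1.65, Insm1 at 0.87, Tal1 at 0.84 and Col25a1 at 0.61.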

How the results depend on the processing

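No paired analysis was possible because each group has 1 library. Pseudocounts of 0.5 and 10, a filter on the mean of 10 or 200, scaling to the same total and a filter on the baseline libraries alone left the counts of 2227 higher and 1444 lower genes within 1.5 times, with 55.8% to 61.3% of calls higher over these and the unfiltered setting. Without a filter 4807 were higher and 3801 lower, and the rank correlation with GC was 0.38. Removing the GC trend gave 450 and 478, removing GC and length 452 and 459, and genes without shared exons, fewer by construction, 1307 higher. The 276 genes past 1.5-fold one way in both genotype pairs as deposited became 517 at a mean of 10, 168 at a mean of 200, 1518 without a filter and 182 under either trend removal. Signs changed for Hcn2 (-0.19 without the GC trend, -0.042 without GC and length), Vars2 (-0.066 and -0.064), Slc17a7 (-0.015 without GC), Slc32a1 (-0.075 without GC), Hist2h2aa1 (-0.14 without GC and length) and C1qa (-0.0082 without GC and length), which were past 1.5-fold upward as deposited. The cause was not tested beyond the subtraction itself. A floor of 3 reads, 3.44 normalised counts in WT BL and 3.76 in KO BL, limits genes listed at 0.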
